A study of Mus musculus with 6 samples.

Results

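The genes described here are 45 genes of the endoplasmic reticulum (ER) that fold, move and remove secreted and membrane proteins. They were chosen by function, as ER chaperones, disulfide isomerases, parts of the protein translocation machinery, factors of ER-associated degradation (ERAD) and sensors of the unfolded protein response. The choice was made with earlier results of these data known. All 45 symbols matched 1 Ensembl identifier each among the 52636 in the count tables, and all 45 had enough reads to be tested. RNA was sequenced in a knockout and a wild-type group of 3 libraries each, all from E14, a line of mouse embryonic stem cells. The knockout group (KO) lacked an enhancer cluster which, going by the title of the series, keeps HoxB active as stem cells turn into neural progenitors. The wild-type group (WT) consisted of unedited E14 cells. Cells of both groups had been kept as stem cells with LIF, PD0325901 (a MEK inhibitor) and CHIR99021 (a GSK inhibitor). They were then differentiated without these factors for 4 days in 5 µM retinoic acid, a unit the labels write as µm. How many KO clones were used, and where the deletion lies, the labels do not say. The design text names the libraries biological replicates. The labels do not say that they came from separate cultures, so p-values measure the spread between these libraries only.

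Proteins bound for the cell surface or the outside enter the ER through the Sec61 channel, lose their signal peptide there, and are folded by chaperones and disulfide isomerases. Chains that fail to fold are recognised by their trimmed sugars and returned to the cytosol for destruction, which is ERAD. When unfolded chains build up, the membrane sensors IRE1, ATF6 and PERK switch on genes for chaperones and ERAD, which is the unfolded protein response. Cells that secrete much matrix or serum protein, such as the extraembryonic endoderm, depend on this machinery.

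The libraries held 7780368 to 8521902 counts in genes in KO and 8208615 to 9472916 in WT. Of the 10 HoxB coding genes, 6 were lower in KO, which describes the cluster named in the title and does not check the deletion. Over all tested genes 34.5% were higher and 34.0% lower, the shares beside which this count and those of the marker lists below stand. KO replicate 1 stood apart by a larger share of reads over ribosomal RNA repeats, at 1.04% where the remaining 5 libraries had 0.0726 to 0.118%. The share of mitochondrial transcripts was 2.58 to 2.89% in KO and 1.67 to 1.73% in WT. The labelled fate was only partly visible. Of 15 neural progenitor markers, Fabp7 and Dbx1 had no counts in any library, another 5 were too low to be tested, and 2 rose and 4 fell among the 8 tested. The list summed to 161 to 170.4 CPM in KO and 485 to 508 CPM in WT. Nes, Cdh2 and Sox2, which fell, weigh most in the WT sum, while Pax6 and Msi1 rose by 1.16 and 0.34. Of 10 neuron markers 6 were tested, of which 4 fell and 1 rose, and Snap25 had no counts. The neuron list summed to 85.3 to 85.9 CPM in KO and 174 to 186 CPM in WT. Stmn2 (-0.25 on the log2 scale, KO over WT) and Tubb3 (-4.92), which fell, weigh most in its WT sum, while Map2 rose (1.63). In contrast all 23 markers of visceral and parietal endoderm were expressed well enough to be tested, of which 17 rose and 4 fell in KO. Their summed level was 21493 to 22088 CPM (counts scaled to a common library size) in KO and 10033 to 10112 CPM in WT. The matrix genes Col4a1, Lamb1, Lama1, Sparc, Col4a2 and Lamc1, which all rose, weigh most in the KO sum. The 4 that fell were Krt8 (498 CPM in KO and 1216 CPM in WT), Krt18, Sox17 and Thbd, and Foxa2 and Ttr did not pass. Of 9 tested markers of naive pluripotency 5 fell and 3 rose, with a median log2 fold change (KO over WT throughout) of -1.18. Their list summed to 891 to 918 CPM in KO and 1089 to 1123 CPM in WT, sums in which Tbx3, which did not pass, and Pou5f1, which rose, weigh most in KO, while Nanog fell to 0.201 times its WT level. Of 10 tested fibroblast markers 7 fell and 2 rose, with a median of -0.84. Their list summed to 1455 to 1480 CPM in KO and 3270 to 3330 CPM in WT, mostly Fn1 and Vim, which fell, whereas Pdgfra and Col1a2 rose by 1.22 and 1.24. Pax6, Msi1, Stmn2, Tbx3, Pou5f1, Col1a2, Sparc, Col4a2, Lamc1, Krt8, Krt18, Sox17, Thbd, Foxa2 and Ttr were named after their values were seen. The part of cell composition in the results that follow was not tested. In RNA from whole cultures, fewer cells of a type and less RNA per cell cannot be told apart.

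The 45 ER genes did not move as a block. In KO 21 rose and 12 fell, while another 12 missed the threshold. The test was edgeR's quasi-likelihood F test at an adjusted p under 0.05 (Benjamini-Hochberg over every gene tested). That makes 73.3% changed among the 45, near the 68.6% changed among all 15816 tested genes. The share that rose was 46.7%, against 34.5% of all tested genes, and the share that fell was 26.7%, against 34.0%. These shares were not tested against each other, and the counts by role below stand beside the same shares of all tested genes. Without KO replicate 1 the counts were also 21 and 12. The median log2 fold change was 0.05, against 0.01 over all tested genes.

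Most changes were small. A log2 fold change of 1 or more in size was seen in 4 of the 45 (8.89%), Atf6, Pdia5 and Derl3 upwards and Edem3 downwards, against 21.0% of all tested genes. The median absolute log2 fold change was 0.22 for the 45 and 0.49 for all tested genes. The 45 were read more deeply, with a median of 101 CPM against 23.7 CPM for all tested genes, and small changes are easier to detect at such depth. Among tested genes with a mean of at least 20 CPM, a level chosen after the values were seen, 78.2% changed and 12.7% changed by a log2 fold of at least 1. The 44 ER genes at that level gave 72.7% and 6.82%. In 32 of the 45 (71.1%) the 3 KO values did not overlap the 3 WT values, against 70.9% of all tested genes.

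**Figure D1:**
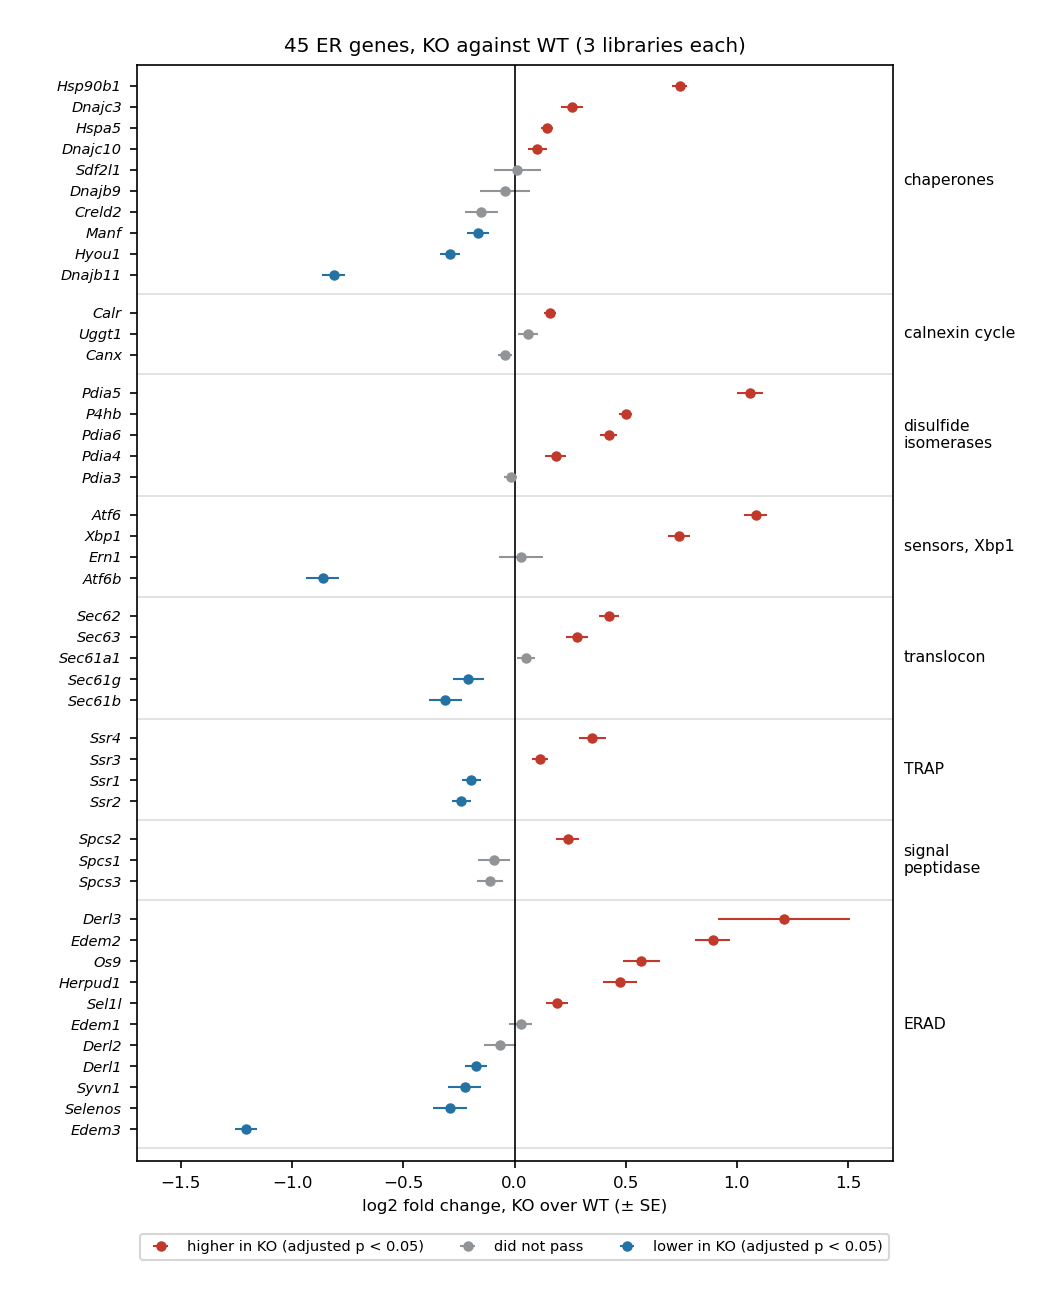
The log2 fold change (KO over WT, x axis) of each of the 45 ER genes (y axis), grouped by role, with bars of 1 SE and colours for genes that were higher, lower or did not pass the test. Rises and falls stand side by side in most groups, from -1.21 for Edem3 to 1.21 for Derl3. No fall is seen among the 5 listed disulfide isomerases, 3 calnexin cycle genes and 3 signal peptidase genes, where 34.0% of all tested genes fell. These groups are small, and the share was not tested. Sec11a, a signal peptidase subunit counted in another list and named after its value was seen, fell.

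What the genes share in sequence was read from their promoters, because the response to unfolded proteins acts through known DNA elements. RefSeq promoter windows (GRCm38.p6, 250 bases before the gene's start to 50 after it) were found for 38 of the 45. The ER stress element, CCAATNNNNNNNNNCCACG on either strand, occurred in 9 of these 38 (23.7%), against 37 of 27025 genes with a window (0.137%). The related element ERSE-II, ATTGGNCCACG, occurred in 2 of the 38 (5.26%), against 12 of the 27025 (0.0444%). The element UPRE, TGACGTGG, occurred in none of the 38 and in 193 of the 27025 (0.714%). Among tested genes with a window the shares were, in the same order, 0.191%, 0.082% and 1.07%. The list was chosen by function and holds genes of this response, so the shares describe it and are no test. A match is a description of these letters and does not show binding. The matches below are shown because they fall in genes that rose, fell and did not pass alike. Each line runs 5′ to 3′ on the gene's strand, with the match in capitals, and lies before the RefSeq start except for Dnajb11. For Hspa5 and Dnajb11 the match is shown without flanks, since GENCODE places it inside the gene.
Hspa5, chr2:34772025-34772043, plus strand: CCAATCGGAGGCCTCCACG
Hsp90b1, chr10:86705623-86705671, minus strand: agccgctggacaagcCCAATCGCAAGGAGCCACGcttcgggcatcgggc
Hsp90b1, chr10:86705518-86705566, minus strand: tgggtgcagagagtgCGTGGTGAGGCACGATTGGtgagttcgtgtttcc
Calr, chr8:84847060-84847108, minus strand: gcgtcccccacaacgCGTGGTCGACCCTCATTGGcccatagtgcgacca
Pdia6, chr12:17266476-17266524, plus strand: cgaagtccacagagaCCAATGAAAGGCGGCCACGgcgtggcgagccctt
Canx, chr11:50325785-50325833, minus strand: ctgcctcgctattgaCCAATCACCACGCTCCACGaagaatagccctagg
Syvn1, chr19:6046517-6046565, plus strand: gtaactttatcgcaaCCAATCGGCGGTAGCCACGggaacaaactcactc
Herpud1 (ERSE-II), chr8:94386362-94386402, plus strand: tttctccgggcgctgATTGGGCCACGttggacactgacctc
Dnajb11 (ERSE-II), chr16:22857852-22857862, plus strand: ATTGGCCCACG

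Of the 9 genes with the ER stress element, 6 rose in KO (Hspa5, Hsp90b1, Calr, Pdia6, Dnajc3 and Derl3), 1 fell (Syvn1) and 2 did not pass (Canx and Creld2), with a median log2 fold change of 0.16. The second Hsp90b1 match and that of Calr lie on the strand opposite to the gene, so the printed letters are the element's complement in reverse. Of the 29 with a window and no match, 14 rose and 7 fell, with a median of 0.06. The 12 tested genes outside the list that hold the element rose in 3 cases and fell in 3, with a median of 0.28. Of all 10979 tested genes with a window, 3943 rose and 3917 fell, with a median of 0.0071. Over all tested genes 34.5% rose and 34.0% fell, and the counts by element were not tested against these. For ERSE-II the 2 genes went opposite ways, Herpud1 up and Dnajb11 down. The element was therefore found in genes of every outcome.

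The chaperones were led by a rise of Hsp90b1, while Hspa5 moved little and its partner Dnajb11 fell. Hspa5 encodes BiP, the ER member of the Hsp70 family, which binds unfolded chains and holds the stress sensors inactive. It stood at 1034, 1036 and 1077 CPM in KO replicates 1 to 3, and at 945, 941 and 957 CPM in WT replicates 1 to 3. Every KO value lay above every WT value, but the rise was only 1.11-fold (log2 fold change 0.15, SE 0.027, edgeR adjusted p = 3.73e-05). Hsp90b1 encodes GRP94, the ER member of the Hsp90 family, which folds a narrower set of clients such as integrins and Toll-like receptors. It stood at 1105, 1073 and 1193 CPM in KO and at 659, 666 and 689 CPM in WT, a rise of 1.67-fold (0.74, SE 0.034, edgeR adjusted p = 2.8e-16). Per kilobase of exon Hsp90b1 averaged 279 CPM in KO and 166 CPM in WT, and Hspa5 248 CPM in KO and 224 CPM in WT. The log2 ratio of Hsp90b1 to Hspa5 CPM was 0.098 ± 0.049 in KO and -0.497 ± 0.021 in WT (SD, n = 3 each), a pair chosen after its values were seen. Of the exon length of Hsp90b1, 10.3% is overlapped by exons of another gene on the opposite strand, and reads of the strands may not be separated.

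The cofactors of BiP moved in different directions. Dnajb11, also called ERdj3, a soluble J-domain protein that hands substrates to BiP, stood at 69.8, 71.7 and 65.1 CPM in KO and at 125, 118 and 121 CPM in WT. This was the largest fall among the chaperones (log2 fold change -0.81, SE 0.051, edgeR adjusted p = 2.24e-13). Dnajc3, also called p58IPK, another J-domain cofactor, rose to 108, 107 and 115 CPM in KO, against 92.6, 89.2 and 94.5 CPM in WT (0.26, SE 0.048). Hyou1 encodes GRP170, a large chaperone that also exchanges nucleotide on BiP. It fell to 212 ± 8.40 CPM in KO, against 259.7 ± 6.25 CPM in WT (-0.29, SE 0.043; SD, n = 3 each). Manf, a secreted factor that binds BiP, fell by 0.16 on the log2 scale, with 8.85% of its exon length covered by exons on the other strand. Dnajc10, an ER reductase with a J domain, had the smallest change that passed, 0.10 (SE 0.042, edgeR adjusted p = 0.0346). It did not pass with DESeq2, with no filter on low counts, or without WT replicate 1, 2 or 3 or KO replicate 3 (adjusted p 0.0626 to 0.129).

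Further chaperone genes known for their induction by ER stress did not pass. Sdf2l1, a partner of the J-domain cofactors, stood at 22.8, 25.1 and 25.6 CPM in KO and 24.4, 24.0 and 24.5 CPM in WT. Dnajb9, also called ERdj4, averaged 21.8 ± 1.52 CPM in KO and 22.4 ± 2.14 CPM in WT. At these lower levels the error was wider, with an SE of 0.104 and 0.113 on the log2 scale. Creld2, a secreted stress-induced protein, was at 56.3, 51.9 and 66.3 CPM in KO and 65.4, 62.6 and 65.9 CPM in WT (-0.15, SE 0.075, edgeR adjusted p = 0.0814). KO replicate 3 was the high one, and without it Creld2 was lower in KO (-0.26, edgeR adjusted p = 0.0041).

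In the calnexin and calreticulin cycle, which holds glycoproteins by their last glucose, 1 of 3 members changed. Calr, encoding the soluble lectin calreticulin, rose to 977, 990 and 996 CPM in KO, against 883, 874 and 893 CPM in WT (0.16, SE 0.027, edgeR adjusted p = 1.08e-05). Canx, encoding its membrane-bound relative calnexin, was at 726, 729 and 769 CPM in KO and at 762, 763 and 767 CPM in WT and did not pass. Without KO replicate 3, however, Canx was lower in KO (-0.07, edgeR adjusted p = 0.0355). Uggt1, which reglucosylates chains that are still unfolded, was at 214 ± 6.77 CPM in KO and 206 ± 9.16 CPM in WT and did not pass either.

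Of the 5 listed protein disulfide isomerases, which form and rearrange disulfide bonds, 4 rose and none fell. Among all tested genes 34.5% rose and 34.0% fell. Pdia5 changed most. It stood at 114, 109.6 and 108 CPM in KO and at 53.8, 55.8 and 49.2 CPM in WT, 2.08-fold higher (log2 fold change 1.06, SE 0.058, edgeR adjusted p = 1.18e-14). P4hb, encoding PDI itself, which is also the beta subunit of prolyl 4-hydroxylase, rose 1.41-fold to 1104, 1081 and 1105 CPM in KO, against 776, 765 and 786 CPM in WT (0.50, SE 0.028). Pdia6, a regulator of IRE1 and PERK, rose to 582, 548 and 546 CPM in KO, against 414, 415 and 422 CPM in WT (0.42, SE 0.036). Pdia4, a larger member, rose by less, to 208, 227 and 240.0 CPM in KO, against 198, 196 and 200.3 CPM in WT (0.19, SE 0.047). In these 4 genes KO and WT libraries did not overlap, as was so in 70.9% of all tested genes. Pdia3, the isomerase that works with calnexin and calreticulin, was at 888, 921 and 938 CPM in KO and 942, 907 and 932 CPM in WT and did not pass (-0.02, SE 0.029).

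**Figure D2:**
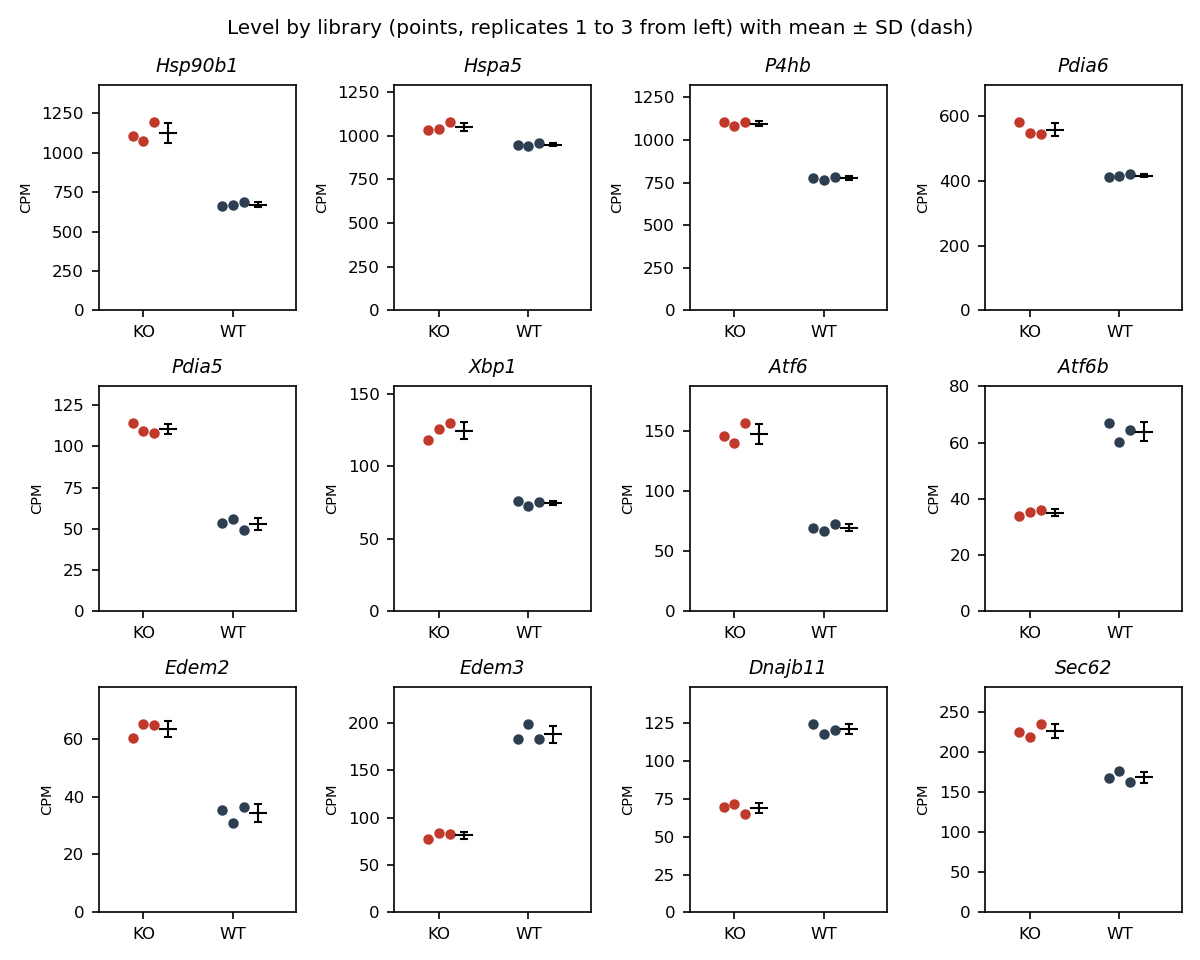
CPM of 12 of the 45 genes (y axes, each from 0) in the KO and WT libraries, with 1 point per library and a dash with bars for the mean ± SD of 3. The 12 were picked after their values were seen, among the 32 of 45 genes in which the KO and WT points do not overlap (70.9% of all tested genes do not); Atf6b, Edem3 and Dnajb11 are the 3 that are lower in KO.

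Among the sensors, the ATF6 relatives went opposite ways. ATF6 is a membrane protein whose freed cytosolic part is a transcription factor for chaperone genes. Atf6 stood at 146, 140.3 and 156 CPM in KO and at 69.2, 66.9 and 72.9 CPM in WT, 2.12-fold higher (log2 fold change 1.09, SE 0.052, edgeR adjusted p = 7.78e-16). Atf6b, a paralog with weaker activity, stood at 33.8, 35.3 and 36.2 CPM in KO and at 66.9, 60.1 and 64.7 CPM in WT, 0.55 times the WT level (-0.86, SE 0.075, edgeR adjusted p = 1.32e-10). The log2 ratio of Atf6 to Atf6b CPM was 2.11, 1.99 and 2.11 in KO and 0.048, 0.15 and 0.17 in WT. Such a ratio does not depend on the scaling of the libraries, and the pair was chosen after its values were seen.

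The other branch was represented by IRE1 and its target. Ern1, encoding the IRE1 kinase and nuclease, stood at 30.8, 33.1 and 26.9 CPM in KO and at 30.9, 28.6 and 29.4 CPM in WT, overlapping groups with no change that passed (0.03, SE 0.099). Xbp1, whose mRNA IRE1 splices to make an active transcription factor, rose to 118, 126 and 130 CPM in KO, against 75.9, 73.1 and 75.3 CPM in WT (0.74, SE 0.049, edgeR adjusted p = 7.42e-13). Counts per gene do not separate the spliced from the unspliced Xbp1 mRNA. Ern1 and Xbp1 lie on chromosome 11, as do P4hb, Canx, Derl2 and Sec61g, the most members of any of the 18 chromosomes that hold one. HoxB lies on that chromosome too, and the member nearest to it, Ern1, is 10.0 Mb away (GRCm38).

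The entry machinery was split within complexes. The Sec61 channel consists of an alpha, a beta and a gamma subunit. Sec61a1, its pore, was at 357, 354 and 339 CPM in KO and 333, 346 and 333 CPM in WT and did not pass (0.05, SE 0.039), although with upper-quartile scaling it did (0.09, edgeR adjusted p = 0.0494). Of its exon length 8.16% is covered by exons on the other strand, and 6.50% of its 50-base stretches occur in other annotated genes. The small subunits fell. Sec61b was at 54.8, 49.9 and 44.6 CPM in KO and 61.8, 61.9 and 61.1 CPM in WT (-0.31, SE 0.074), and Sec61g fell by 0.21 (SE 0.070). The Sec61g call was lost without KO replicate 2 (edgeR adjusted p = 0.0565). Their transcripts share 17.4% (Sec61b) and 14.8% (Sec61g) of 50-base stretches with other annotated genes, so some of their reads may have been discarded or misplaced. Sec62 and Sec63 encode partners that let chains enter after translation. Sec62 rose to 225, 218 and 235 CPM in KO, against 167, 176 and 162 CPM in WT (0.42, SE 0.045), with 11.7% of its exon length covered by exons on the other strand. Sec63 rose to 143, 139.5 and 147 CPM in KO, against 112, 116 and 125 CPM in WT (0.28, SE 0.049).

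The TRAP complex, which sits beside the channel and helps chains to insert, has 4 subunits, and 2 rose while 2 fell. Ssr4 rose to 84.0, 89.3 and 82.5 CPM in KO, against 71.1, 65.8 and 63.7 CPM in WT (0.35, SE 0.060). Ssr3 rose by 0.11 (SE 0.037), a call lost without WT replicate 2 (edgeR adjusted p = 0.0586) or KO replicate 3 (0.0568). Ssr1 was at 241, 243 and 258 CPM in KO and 283, 281 and 286 CPM in WT (-0.19, SE 0.042). Ssr2 was at 195, 197 and 192 CPM in KO and 224, 226 and 239.8 CPM in WT (-0.24, SE 0.043), with 12.8% of its exon length covered by the other strand. In all 4 genes the KO and WT libraries did not overlap, as was so in 70.9% of all tested genes.

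Signal peptidase, which removes the signal peptide, changed in 1 of its 3 listed subunits. Spcs2 rose to 133, 133 and 141 CPM in KO, against 118, 107 and 121 CPM in WT (0.24, SE 0.050, edgeR adjusted p = 0.000169). Spcs1 and Spcs3 did not pass, at -0.09 (SE 0.073) and -0.11 (SE 0.060). Spcs3 was lower in KO without WT replicate 3 (edgeR adjusted p = 0.0303) or KO replicate 3 (0.0276).

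ERAD held the widest spread, with 5 genes that rose, 4 that fell and 2 that did not pass. The EDEM proteins are mannosidases and mannosidase-like factors that mark misfolded glycoproteins, and each of the 3 behaved differently. Edem3 fell to 77.3, 83.6 and 83.0 CPM in KO, against 182, 199 and 183 CPM in WT, 0.433 times the WT level (log2 fold change -1.21, SE 0.051, edgeR adjusted p = 4.22e-17). Edem2 rose to 60.2, 65.0 and 64.9 CPM in KO, against 35.4, 30.8 and 36.6 CPM in WT (0.89, SE 0.079, edgeR adjusted p = 1.85e-10). Edem1 was at 106, 94.2 and 104 CPM in KO and 94.6, 100.4 and 103 CPM in WT, with overlapping groups (0.03, SE 0.052). The log2 ratio of Edem2 to Edem3 CPM was -0.360 ± 0.0037 in KO and -2.46 ± 0.199 in WT (SD, n = 3 each), a pair chosen after its values were seen.

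Among the factors that pick up and deliver the marked chains, 3 rose and the ligase fell. Os9, a lectin that reads the trimmed sugars, rose to 45.2, 48.7 and 47.0 CPM in KO, against 31.8, 33.3 and 29.6 CPM in WT (0.57, SE 0.083). Herpud1, a scaffold of the membrane complex, rose to 68.0, 58.4 and 62.7 CPM in KO, against 41.7, 49.0 and 45.2 CPM in WT (0.47, SE 0.077). Sel1l, the adaptor of the central ubiquitin ligase, rose by 0.19 (SE 0.049). The ligase itself, Syvn1 (HRD1), was at 62.5, 61.6 and 61.8 CPM in KO and at 81.2, 73.8 and 62.0 CPM in WT. WT replicate 3 reached down to the KO values. The fall of Syvn1 (-0.22, SE 0.075, edgeR adjusted p = 0.0101) was lost without WT replicate 1, the highest library (-0.14, edgeR adjusted p = 0.113).

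The derlins, membrane proteins of the exit channel, again differed. Derl1 fell to 92.4, 92.8 and 91.7 CPM in KO, against 109, 103 and 100.3 CPM in WT (-0.17, SE 0.048). Derl2 did not pass (-0.07, SE 0.072). Derl3, known from professional secretory tissues, had the fewest counts of the 45, with 48, 27 and 47 counts in KO and 23, 18 and 15 in WT. It was 2.32-fold higher in KO, with the widest error of the 45 (log2 fold change 1.21, SE 0.30, edgeR adjusted p = 0.000816). Selenos, a selenoprotein that ties derlins to the ATPase p97, fell to 43.3 ± 2.45 CPM in KO, against 53.0 ± 3.16 CPM in WT (-0.29, SE 0.077; SD, n = 3 each).

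In summed level the 45 genes were higher in KO, and a few abundant genes made up most of the gains. The sum was 10891, 10814 and 11206 CPM in KO and 9761, 9702 and 9839 CPM in WT, a mean 12.3% above WT. The gains of all members that were higher came to 1626 CPM and the losses of those that were lower to -423 CPM. Hsp90b1 (452 CPM), P4hb (321 CPM), Pdia6 (142 CPM), Calr (104 CPM) and Hspa5 (102 CPM) accounted for 69.0% of the gains. Without these 5 the sum was 6155 CPM in KO and 6073 CPM in WT. The 5 were taken as the largest gains and no loss was left out, so that choice fixed a smaller difference in advance. The largest loss was that of Edem3 (-107 CPM). Levels per kilobase used the length of all annotated exons of a gene, not that of its main transcript, so they compare genes only roughly. They were highest for P4hb, Calr, Pdia3, Hsp90b1 and Hspa5 in KO, at 383, 343, 292, 279 and 248 CPM per kilobase. In WT the order was Calr, Pdia3, P4hb, Hspa5 and Hsp90b1, at 307, 295, 271, 224 and 166 CPM per kilobase. The endoderm markers, whose summed level differed between the groups as given above, include the matrix genes Lamb1, Lama1 and Col4a1, which rose by 1.73, 1.59 and 1.37 on the log2 scale. The fibroblast list also holds matrix genes that fell, Fn1 (-0.93), Col1a1 (-1.71) and Col3a1 (-1.13), and Col1a2, which rose (1.24). Col3a1 was named after its value was seen. The part of these genes in the higher sum of the 45 was not tested.

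**Figure D3:**
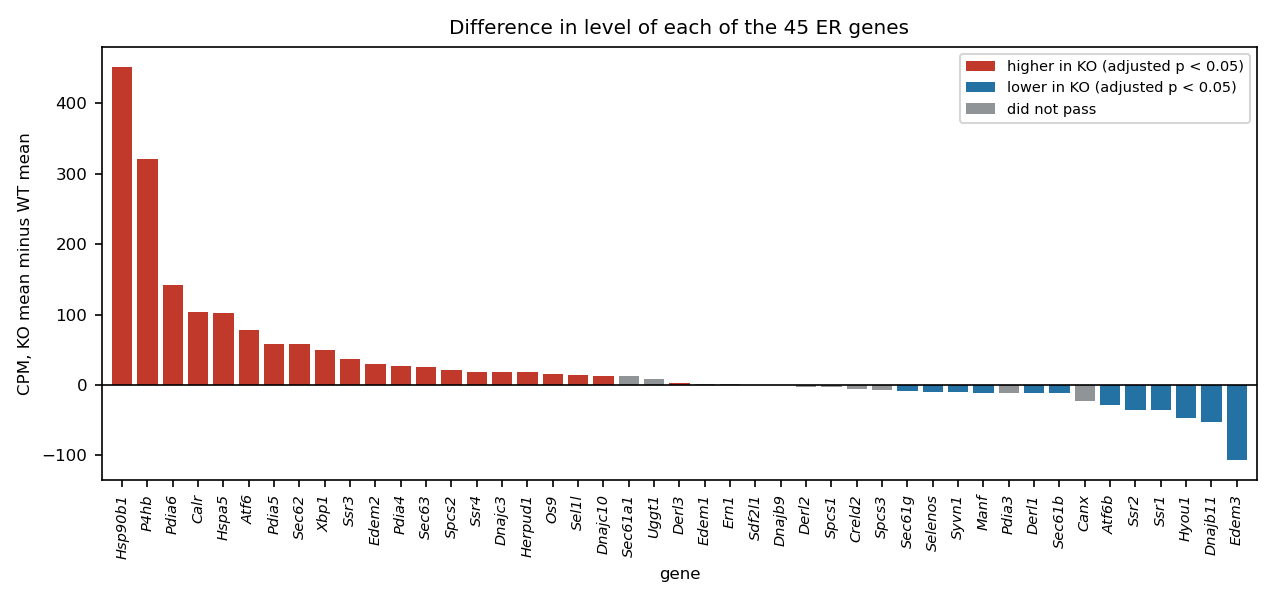
Difference in CPM (mean of 3 KO libraries minus mean of 3 WT libraries, y axis) for each of the 45 genes (x axis, sorted), coloured by call. The 5 bars on the left, from Hsp90b1 at 452 CPM to Hspa5 at 102 CPM, are the largest gains, and Edem3 at -107 CPM is the largest loss.

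Other ER genes were followed in 8 lists, of which 173 of 176 genes were tested. In KO 82 rose and 58 fell, 33 did not pass, and the group had a median log2 fold change of 0.09. Over all tested genes 34.5% were higher, 34.0% lower and 68.6% either, the shares beside which these counts and those of each list below stand, and none was tested against them. Collagen folding factors rose in 10 of 14 and fell in 2, with a median of 0.47. Among them P4ha1 and P4ha2, the catalytic partners of P4hb in prolyl 4-hydroxylase, rose by 1.39 (SE 0.040) and 1.60 (SE 0.047). Serpinh1, the collagen chaperone HSP47, rose to 1682 ± 47.8 CPM in KO, against 1156 ± 31.1 CPM in WT (SD, n = 3 each). Plod2, a lysyl hydroxylase, rose by 0.92 (SE 0.049).

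Other oxidoreductases and folding factors rose in 17 of 26 and fell in 6, with a median of 0.24. Sil1, a nucleotide exchange factor of BiP, rose by 1.50 (SE 0.10), whereas Hyou1, which shares that activity, fell as described above. The peroxiredoxin Prdx4 and the thioredoxin-like Txndc12 rose by 0.84 and 0.75, and the collagen-linked prolyl isomerase Fkbp10 was at -1.19 (SE 0.046). The oligosaccharyltransferase and glucosidase list rose in 9 of 16 and fell in 3, with a median of 0.20. Its catalytic subunit for chains still being made, Stt3a, rose to 438, 454 and 460 CPM in KO, against 287, 275 and 290.2 CPM in WT (0.67, SE 0.039). The subunits Ddost and Rpn2 rose by 0.47 and 0.34, and Mlec, a lectin for glucosylated chains, was at -0.65 (SE 0.036).

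Genes of the vesicle route to the Golgi rose in 14 of 29 and fell in 8, with a median of 0.09. Kdelr1, a receptor that returns escaped ER chaperones, rose to 137, 140.3 and 134 CPM in KO, against 72.7, 64.7 and 70.7 CPM in WT (0.98, SE 0.050). The coat subunits Sec23a and Sec24a rose by 0.95 and 0.59, and the cargo receptor Lman1 by 0.66. Genes for targeting to the ER rose in 7 of 24 and fell in 11, with a median of -0.06. There Srp68 and Srpr, of the signal recognition particle and its receptor, rose by 0.42 and 0.39, while Wrb and Get4, of the tail-anchor route, were at -1.28 and -0.39. Further ERAD factors rose in 10 of 25 and fell in 9. Vcp, encoding p97, and its cofactor Nploc4 were at -0.61 and -0.74, the conjugating enzyme Ube2j1 was at -0.93, and Sel1l3 was at 1.73. Genes of ER shape and ER-phagy rose in 7 of 15 and fell in 6. The ER-phagy receptor Retreg1 rose by 1.39, Reep6 by 1.51 and Arl6ip1 by 0.66, while Rtn4 was at -0.94. Of the genes named from these lists, Rtn4, Wrb, Sec23a, Vcp, Fkbp10, Plod2, Sil1 and Rpn2 have more than 5% of their exon length covered by exons on the other strand.

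Of 24 tested genes of the PERK arm and other factors of the stress response, 13 fell and 8 rose, with a median of -0.19. The largest change in size among those named was that of Ddit3, encoding the stress transcription factor CHOP, which stood at 306, 303 and 291 CPM in KO and at 42.2, 41.3 and 40.2 CPM in WT (2.86, SE 0.049, edgeR adjusted p = 2.76e-25). Chac1, which degrades glutathione and is a known target of the ATF4 pathway, was at 10.0, 9.36 and 13.1 CPM in KO and at 43.4, 43.4 and 38.0 CPM in WT (-1.93, SE 0.12). Creb3l1, an ATF6-like factor of secretory cells, was at -1.28 (SE 0.064). Nfyc, a subunit of the factor that binds the CCAAT part of the ER stress element, was at -1.45 (SE 0.087). In genes chosen after their values were seen, Eif2ak3, encoding PERK, rose by 0.76 (SE 0.071; 8.05% of its exon length overlaps the other strand), and Atf4 was at 279.9 ± 2.83 CPM in KO and 395 ± 4.49 CPM in WT (-0.50; SD, n = 3 each).

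**Figure D4:**
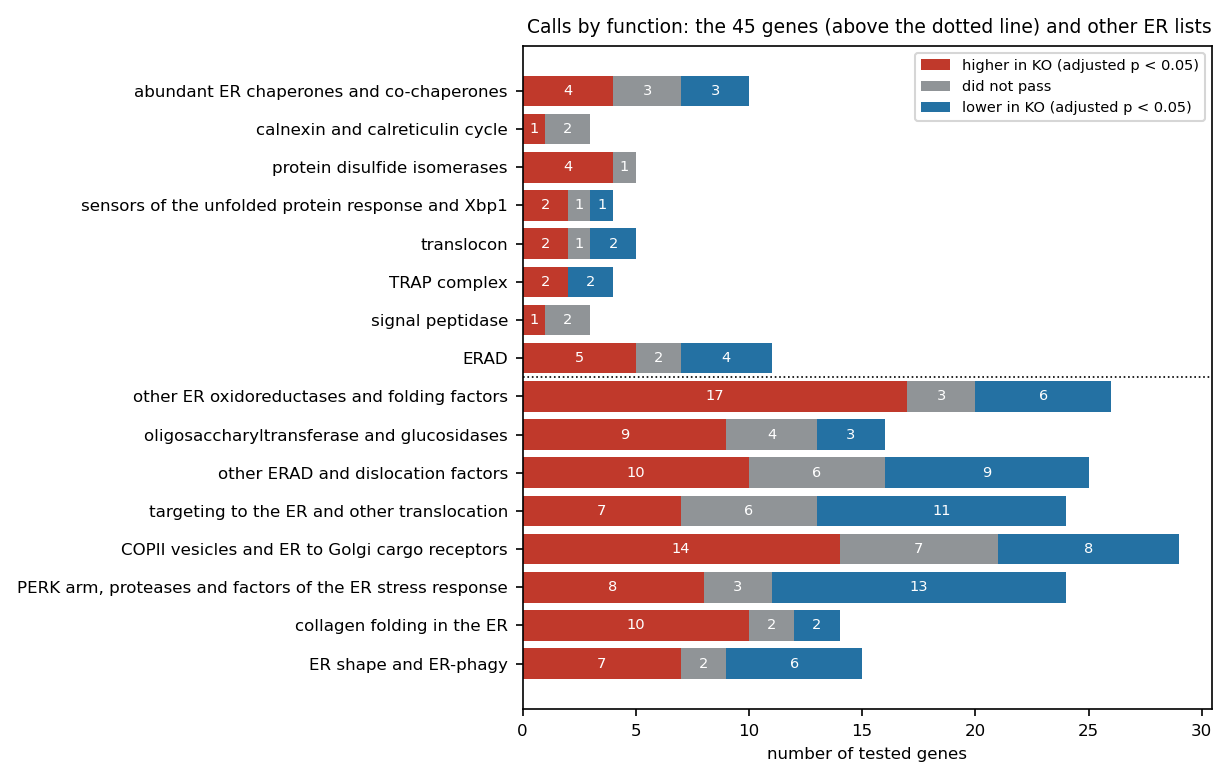
Number of tested genes (x axis) that were higher in KO, did not pass or were lower in KO, for each of the 8 roles of the 45 genes (above the dotted line) and 8 lists of other ER genes. Disulfide isomerases (4 of 5) and collagen folding factors (10 of 14) are mostly higher, and 13 of 24 in the list with PERK are lower. Over all tested genes 34.5% were higher and 34.0% lower.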

How the data were processed

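Whole-number read counts per Ensembl gene, 1 table per library, were deposited by the authors without normalisation. The submitters' processing notes name HISAT2 2.1.0, HTSeq 0.9.1, DESeq2 1.18.1 and the build mm10; the annotation release and the strand setting of the counting are not stated there. Between 36.0 and 38.4% of the reads in a library were assigned to genes and 42.3 to 43.5% to no feature; HTSeq's 5 tally lines were left out.

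Symbols, exon lengths and overlaps came from GENCODE M21 (GRCm38). Of 52636 identifiers, 52489 matched. The test on these counts used edgeR 4.0.16 (R 4.3.3) (filterByExpr with a minimum count of 10, TMM scaling, quasi-likelihood F test, Benjamini-Hochberg over all 15816 genes tested, threshold 0.05). The procedure was tested on simulated data with a far smaller share of changed genes than the 68.6% called here. That simulation therefore does not cover the present setting. SEs were derived from the fold change and F. CPM uses TMM-scaled library sizes. The biological coefficient of variation was 6.08%. No replicate pair agreed within sampling noise (chi-square per degree of freedom 1.91 to 7.14).

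All 45 genes may be named, and from each other list up to 4 with the smallest adjusted p; members and lists were chosen with earlier results of these data known. Alternatives were DESeq2 1.42.0, limma-voom (limma 3.58.1), RLE and upper-quartile scaling, other filters, a replicate block, removal of mitochondrial and ribosomal repeat genes, and each library left out. Promoters came from RefSeq (GRCm38.p6).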

Additional observations from a re-analysis of the deposited data

How the results depend on the processing

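Over the 14 alternatives, 20 to 22 of the 45 genes were higher and 12 to 13 lower with other tools, scalings, filters or genes left out. With 1 library left out in turn, 19 to 21 were higher and 11 to 15 lower. Of the 33 genes that passed, 29 stayed past the threshold in the same direction in every alternative; the other 4 were Dnajc10, Syvn1, Sec61g and Ssr3. No gene that passed in any of these changed sign. The median log2 fold change of the 45, 0.053, was 0.039 with DESeq2, 0.047 with RLE scaling, 0.089 with upper-quartile scaling, 0.042 with no filter, and 0.036 to 0.076 with 1 library left out. The cause was not tested, but upper-quartile scaling also moved the median of all tested genes, to 0.046 against 0.0091. With the replicate number as a block, 21 genes were higher and 13 lower, Creld2 being the added one (adjusted p by edgeR 0.0471). No shared deviation of same-numbered KO and WT libraries was seen, with correlations of 0.013, 0.0049 and -0.013 across genes. Whether same-numbered libraries were handled together the labels do not say, and these values cannot show it. Depth limits Derl3, with 15 to 48 counts per library; every other member had at least 170.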
